A study of Volvox carteri with 4 samples.

Results

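The extracellular matrix (ECM) glycoprotein genes of *Volvox carteri* were examined as a group. Members were the loci on the study's own list of predicted ECM genes, joined by locus identifier to the table of read counts. The list held 67 loci, and all 67 were found among the 16008 gene models of the table. Loci were placed in families by gene name alone, which gave 32 pherophorin loci, 26 VMP loci (Volvox matrix metalloproteinases) and 9 other loci. The 67 loci carried 86 gene names, because 10 loci each stood for several names. The most names on a single locus were 7, on Vocar.0034s0104 (*phII*, *phIII*, *phV1*, *phV4*, *phV5*, *phV6* and *phV7*, called the *phII* locus here). Beside the names the list printed 79 identifiers from an older genome version, of which 73 were found in RefSeq's annotation of that version, and all 73 had the listed name as their symbol there. The list mixes structural glycoproteins with secreted enzymes and a secreted signal, so that its title describes where the products are thought to go rather than a single function.

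The ECM fills most of the volume of a *Volvox* spheroid and holds the cells in their positions. Pherophorins are secreted glycoproteins in which globular domains flank a stiff hydroxyproline-rich stretch, and they cross-link into the fibrous layers and compartments of the matrix. VMPs are secreted metal-dependent peptidases, some with hydroxyproline-rich modules of their own, and are thought to remodel the matrix while the spheroid enlarges. Several pherophorins, VMPs and other matrix genes are also known to respond to the sex inducer, the glycoprotein that switches *Volvox* from asexual to sexual development.

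Gonidia, the large asexual reproductive cells of the spheroid interior, were compared with somatic cells, the small flagellated cells of its surface. Both came from hatched adult spheroids of the wild-type female strain Eve at hour 42 of the 48-hour life cycle, 6 hours into the second light period, with no other treatment named. Each cell-type was sequenced as 2 libraries, here gonidial replicates 1 and 2 and somatic replicates 1 and 2, and a given culture was used for only 1 cell-type. Each library came from a pool of purified cells, so that fewer cells expressing a gene and less of its RNA per cell cannot be told apart.

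Gonidial replicates 1 and 2 had 11583555 and 11650101 counted reads, and the somatic pair had 10838222 and 13104583. A count of 0 allows up to 3 reads, or between 0.229 and 0.277 CPM (reads scaled to a common library total), and such limits and all counting intervals given here cover counting error only. Counts were not divided by transcript length, and longer transcripts give more reads, so genes are compared with each other only as sources of reads. Because only uniquely mapped reads were counted, values of near-identical paralogs and of loci with several names are uncertain. As a check of the labels, *regA*, the transcription factor that keeps somatic cells from reproducing, had 1 and 0 gonidial and 486 and 786 somatic reads. The 83 axoneme genes on the study's flagella list, which encode the motile core of the flagellum, summed to 1268 and 1204 CPM in gonidia and to 27766 and 31479 in somatic cells, and 81 of them were somatic by the test below. Of these 83 genes, 1 had no read in gonidial replicate 2 and all had reads in the other libraries. A list of 19 earlier gonidial cDNA clones summed to 87339 and 93034 CPM in gonidia and to 53851 and 43766 in somatic cells. By the same test 9 of them were gonidial and 2 somatic. These were 47.4% and 10.5% of the list, beside 46.7% and 26.0% of all tested genes. The gonidial share of the clones was thus near the background, and their calls add little to the check. Reads of axoneme genes were thus present at a low level in the gonidial libraries beside the ECM reads described next, and the part of somatic RNA in the latter was not tested.

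ECM loci together took a far larger part of the somatic than of the gonidial reads. Gonidial replicates 1 and 2 had 18163 and 15973 ECM reads, against 443080 and 592451 for the somatic pair. These were 0.157% and 0.137% of all counted reads in gonidia (95% Wilson intervals 0.155% to 0.159% and 0.135% to 0.139%) and 4.09% and 4.52% in somatic cells (4.08% to 4.10% and 4.51% to 4.53%). Neither somatic library came near the gonidial ones, and replicates of a cell-type lay close together. The means were 0.147% ± 0.0139 (SD, n = 2) in gonidia and 4.30% ± 0.306 (SD, n = 2) in somatic cells, a ratio of 29.3, with 26.1 to 33.0 over the pairs of single libraries. An exact two-sided permutation test over the 4 libraries gave p = 0.333, the smallest it can give at this size. Of the summed CPM of the group, 96.7% were somatic.

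All 3 families followed this direction, to different degrees. Pherophorins took 0.118% ± 0.0119 of the gonidial and 2.24% ± 0.123 of the somatic reads (SD, n = 2), 19.1 times more. VMPs took 0.0141% ± 0.000300 and 1.38% ± 0.170, 97.8 times more, and the remaining 9 loci took 0.0152% ± 0.00174 and 0.685% ± 0.0134, 45.1 times more. No somatic library of any family came down to the gonidial level. The pair ratios of single libraries ran from 17.1 to 21.3 for pherophorins, from 88.0 to 108 for VMPs and from 41.2 to 49.7 for the other loci. These ranges did not overlap between families as defined by gene name. Single loci weighed heavily on them. In somatic replicates 1 and 2, *ssgA* held 86.1% and 82.2% of the reads of the other loci, and *phI* 71.1% and 62.2% of those of pherophorins. The order of pherophorins and other loci thus depends on where *ssgA* is placed.

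To compare single loci between cell-types, 13350 genes were tested by quasi-likelihood in edgeR, after removal of genes with few reads, and p-values were adjusted over all of them by Benjamini-Hochberg. A gene is called somatic or gonidial where its adjusted p was under 0.05 and its fitted change at least 2-fold, and log2 fold changes are somatic over gonidial throughout, a negative value standing for a gene higher in gonidia. Of the 67 ECM loci, 54 had enough reads to be tested and 13 did not. Among the 54, 41 were somatic, 6 were gonidial and 7 were neither, whereas 26.0% of all tested genes were somatic and 46.7% gonidial. Read against that background, 75.9% of the tested ECM loci were somatic and 11.1% gonidial. With a change over 5-fold, 36 loci were somatic and 5 gonidial, beside 16.9% and 29.1% of all tested genes. A fitted change over 100-fold toward somatic cells was found for 24 ECM loci, or 23 with loci at 0 set to their lower bound, beside 3.69% of all tested genes. The bound was used only where both gonidial libraries had no read. Both numbers include *vmp24*, the locus of *vmp20* with *vmp21*, and *vmp23*, whose few gonidial reads gave counting intervals starting at 33.4-, 79.2- and 64.1-fold. They also include *phV12* and the locus of *vmp10* with *vmp30*, whose fitted changes of 101.5- and 106.0-fold lay within their SE of the limit. *vmp25* stays among the 23 by a lower bound of 101.7-fold. The median log2 fold change of the tested ECM loci was 5.91, or 5.72 with those bounds, against -0.85 for all tested genes.

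The filter on low counts bears on these numbers, because a locus that is nearly silent in gonidia can pass it through its somatic reads. When at least 10 reads were required in every library, 26 ECM loci were left, of which 20 were somatic and 2 gonidial. Of all 8826 genes that passed this filter, 2271 were somatic and 3479 gonidial. The median of all tested genes moved to -0.26 with TMM normalization, to -0.14 with DESeq2's size factors and to -0.73 with plain totals. The split over all genes, 3471 somatic and 6233 gonidial, moved to 4295 and 5070 with TMM and to 4490 and 4836 with DESeq2's size factors, whereas the ECM split became 42 and 5 with either.

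**Figure D1:**
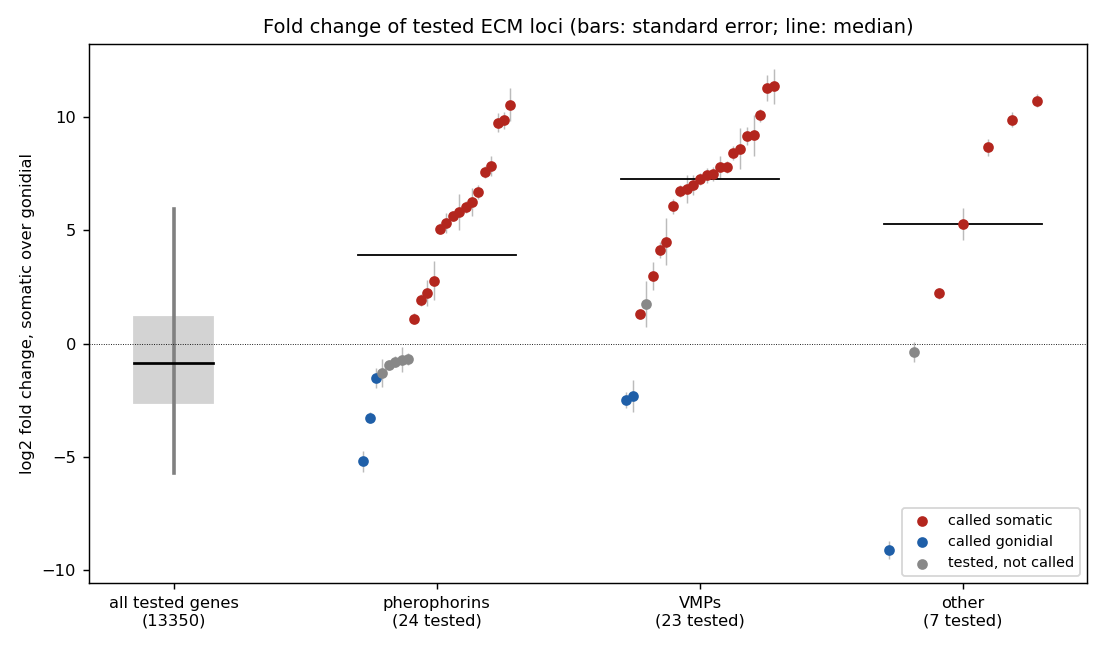
Log2 fold changes (y axis, somatic over gonidial) of all tested genes, with a box from the lower to the upper quartile, a line at the median of -0.85 and a vertical bar from the 5th to the 95th percentile, and of each tested ECM locus by family (24 pherophorins, 23 VMPs, 7 other loci), with SE bars, a horizontal line at each family's median (3.92, 7.26 and 5.28) and colour showing the call. Most ECM points lie above 0, 6 blue points are gonidial, and the points of *vmp25* and *vmp5*, which had no gonidial read, are fitted values that depend on the prior count.

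Of the 32 pherophorin loci, 24 were tested: 16 were somatic, 3 were gonidial and 5 were neither, with a median log2 fold change of 3.92. Changes over 5-fold toward somatic cells were found for 13 of them and over 100-fold for 6, of which *phV12* lay within its SE of that limit. *phI* (Vocar.0004s0255), a founding member of the family, had 945 and 750 reads in gonidia and 166199 and 190046 in somatic cells. No ECM locus had more reads in somatic cells, and it was the gene with the 4th most reads of all genes in both somatic libraries. Its log2 fold change was 7.56 ± 0.25 (SE), with an adjusted p of 1.36e-14. At the *phII* locus, whose named genes include pherophorins that respond to the sex inducer, 813 and 858 gonidial reads stood against 36100 and 57898 somatic reads. Its log2 fold change of 5.62 ± 0.24 (adjusted p = 1.25e-13) was smaller than that of *phI*, since it had about as many gonidial reads and fewer somatic reads. *phV11* (Vocar.0004s0116) had 162 and 147 gonidial and 8570 and 14092 somatic reads, a log2 fold change of 6.01 ± 0.26 (adjusted p = 1.44e-13).

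Some pherophorins had almost no gonidial reads. *phV34* (Vocar.0004s0369) had 10 and 9 reads in gonidia and 6556 and 14011 in somatic cells, a log2 fold change of 9.85 ± 0.37 (adjusted p = 3.4e-14). The largest fitted value among pherophorins, 10.53 ± 0.72 (adjusted p = 9.23e-11), belonged to *phDZ1* (Vocar20003965m.g), one of the pherophorins named for the deep zone of the matrix, with 0 and 1 gonidial and 454 and 1717 somatic reads. With a single gonidial read the ratio of normalised counts was 1932, with a 95% counting interval of 346 to 76341. *phDZ2* (Vocar20010834m.g), the other pherophorin named for that zone, had 8 and 9 gonidial and 1174 and 3373 somatic reads, a log2 fold change of 7.81 ± 0.44 (adjusted p = 5.1e-12). Gonidial and somatic libraries were fully separate for these 3 genes. Here and below, such separation carries little weight alone with 2 libraries per cell-type, and it was not counted over all genes. For scale, 10898 of the 13350 tested genes had an unadjusted p under 0.05 in the edgeR test. Scaled to library size, somatic replicate 2 lay above replicate 1 by 0.75 on the log2 scale for *phV34*, 1.57 for *phDZ1* and 1.17 for *phDZ2*. *phV29* (Vocar.0048s0010) had 1 and 3 gonidial and 1790 and 2296 somatic reads, a ratio of 909 (counting interval 355 to 3338).

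The other somatic pherophorins spanned a wide range of levels. *phV40* had 210 and 180 gonidial and 5714 and 9140 somatic reads (log2 fold change 5.06 ± 0.25), and *phV12* had 37 and 40 against 3097 and 5931 (6.67 ± 0.31). Less abundant were *phV36*, *phV10* and *phV14*, with 192 to 257, 66 to 127 and 25 to 54 somatic reads. They had no more than 6, 1 and 1 gonidial reads per library. Their log2 fold changes were 5.33 ± 0.44, 6.24 ± 0.60 and 5.81 ± 0.80. The counting intervals of their ratios were wide, at 21.5 to 83.9, 23.5 to 714 and 12.3 to 2811. *phV16* and *phV28* differed less, with log2 fold changes of 1.92 ± 0.28 and 1.10 ± 0.26, and were well represented in both cell-types. The call of *phV28*, with 164 and 136 gonidial and 357 and 356 somatic reads, was lost without somatic replicate 1, where its log2 fold change was 0.92. *phV20* and *phV15* had at most 22 reads in any library and log2 fold changes of 2.24 and 2.78, and *phV15*, with 1 gonidial read per library, was not called without gonidial replicate 1 (adjusted p = 0.0731), without gonidial replicate 2 (0.0653) or with the DESeq2 Wald test (0.103).

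A few pherophorins were higher in gonidia, among them the ECM locus with the most gonidial reads. *phV23* (Vocar.0024s0151) was the most abundant ECM locus of both gonidial libraries, with 5327 and 4561 reads against 520 and 631 in somatic cells. Its log2 fold change was -3.27 ± 0.22, with an adjusted p of 9.96e-11. *phV41* (Vocar.0027s0177) had 109 and 127 reads in gonidia and 3 and 4 in somatic cells, the most gonidial ratio of the family at 37.9 (counting interval 18.1 to 95.3, log2 fold change -5.19 ± 0.45, adjusted p = 3.08e-09). Both genes were fully separated between cell-types and closely alike in the gonidial replicates. *phV32* (Vocar.0004s0232) was the third gonidial pherophorin, with 47 and 34 reads against 9 and 23, and its log2 fold change of -1.52 ± 0.42 (adjusted p = 0.00278) was no longer called with TMM (-0.93) or with DESeq2's size factors (-0.81).

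Next to *phV23* in gonidial abundance stood *phV27* (Vocar.0048s0011) and the locus of *phV2* and *phV17* (Vocar.0073s0006), which were neither somatic nor gonidial. *phV27* had 3756 and 3333 reads in gonidia and 1507 and 3206 in somatic cells, and its log2 fold change of -0.80 ± 0.24 (adjusted p = 0.00449) was under the 2-fold limit. *phV2* and *phV17* had 2555 and 2092 gonidial and 1007 and 1712 somatic reads, with -0.96 ± 0.22 (adjusted p = 0.000615). *phV26* (Vocar.0048s0012) was lower, with 364 and 344 gonidial and 159 and 355 somatic reads, and had -0.67 ± 0.27 (adjusted p = 0.0291). In CPM the gonidial libraries lay above the somatic ones for these 3 loci, with somatic replicate 2 the nearer of the somatic pair. Without somatic replicate 2 all 3 were called gonidial, at -1.22, -1.19 and -1.14, and the gonidial pherophorins then numbered 6. The locus of *phV2* and *phV17* was also called without gonidial replicate 2, at -1.07. With DESeq2's size factors the values were -0.09, -0.25 and 0.03, so the direction of *phV26* depended on the scaling. *phV22* and *phV31* had at most 13 reads in any library and were not called, with log2 fold changes of -0.72 ± 0.56 and -1.30 ± 0.61.

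The 8 pherophorin loci left untested had at most 5 reads in any library. Among them was *phS* (Vocar.0004s0126), with 2 and 2 gonidial and 2 and 1 somatic reads. No read was counted in any library at the locus of *phV24*, *phV25*, *phV37* and *phV39*. At these depths nothing can be said about a difference between cell-types for any of the 8.

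**Figure D2:**
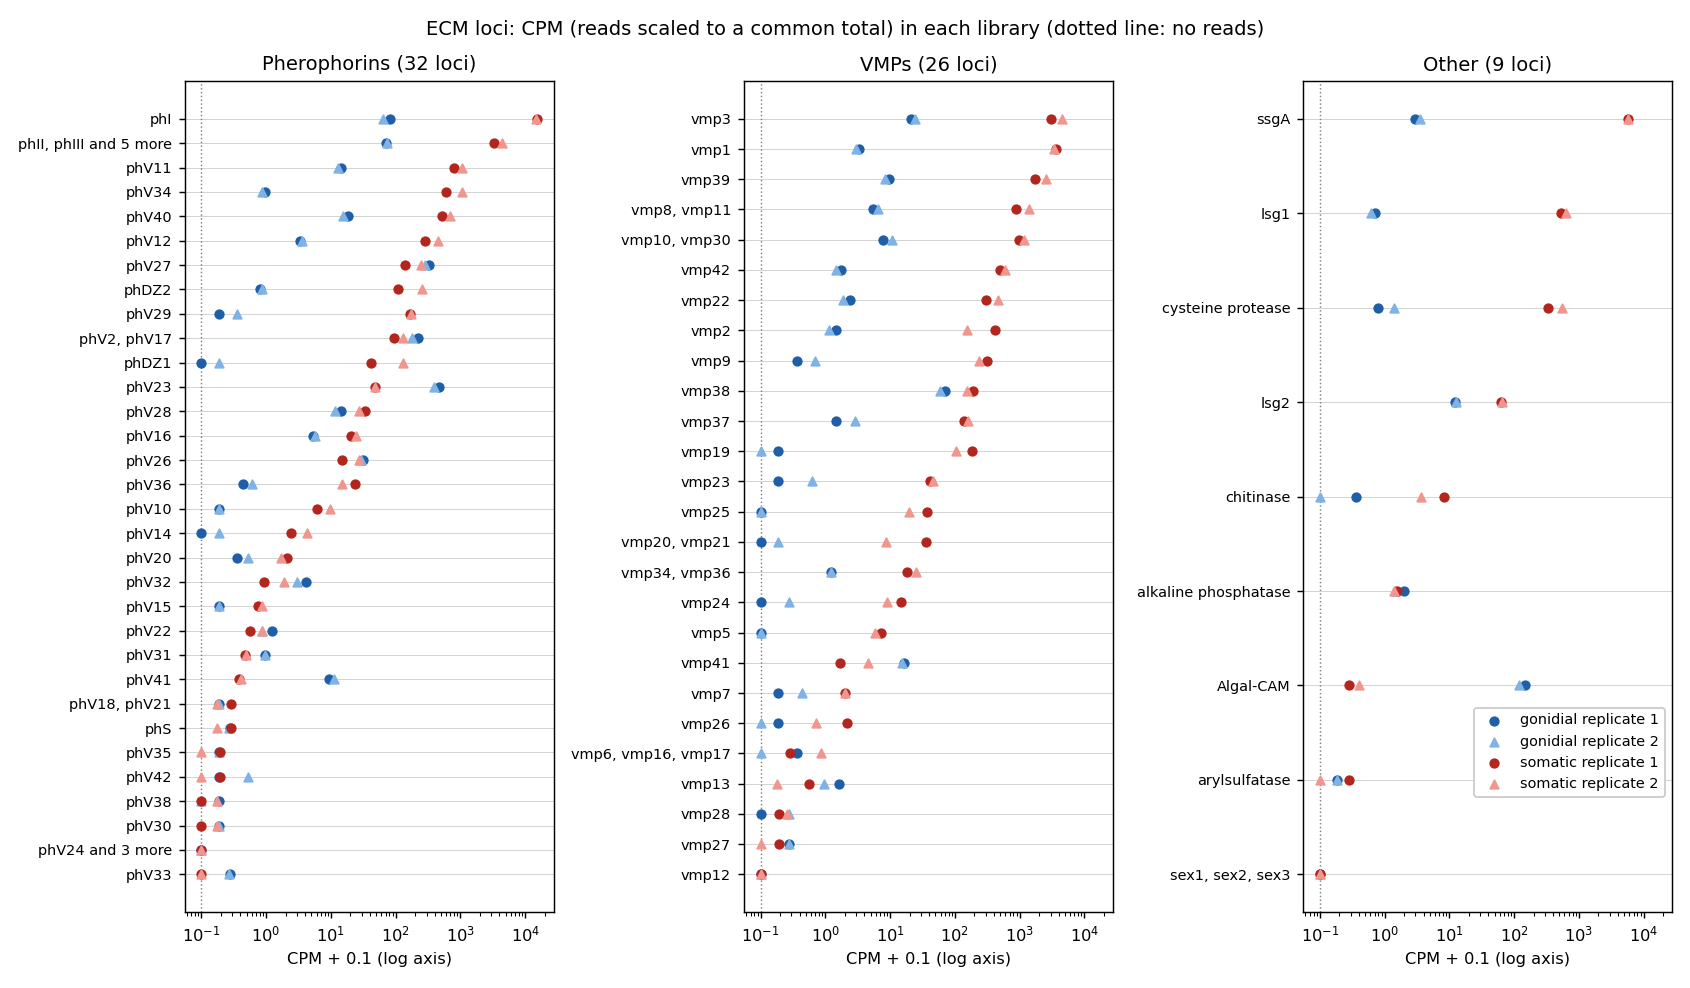
CPM plus 0.1 (x axis, log scale) of each of the 67 ECM loci in the 4 libraries, by family and in order of somatic level, with blue for gonidial and red for somatic libraries, circles for replicate 1 and triangles for replicate 2. Red symbols lie far to the right of blue symbols for most loci from *phI* and *ssgA* downward, whereas *phV23*, *phV41*, *vmp41* and *Algal-CAM* have the blue symbols to the right, and symbols on the dotted line stand for libraries with no read.

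VMP loci had a higher median change toward somatic cells than pherophorins did. The pherophorin median of 3.92 became 5.06 with *ssgA* counted among them, still below that of VMPs. Of the 26, 23 were tested: 20 were somatic, 2 gonidial and 1 neither. The median log2 fold change was 7.26, or 6.81 with loci at 0 set to their lower bound. Over 100-fold toward somatic cells were 15 loci, or 14 with the bounds. Among these were *vmp24*, *vmp23* and the locus of *vmp20* with *vmp21*, whose counting intervals reached below 100-fold. The locus of *vmp10* with *vmp30* lay within its SE of 100-fold. *vmp1* (Vocar.0007s0366), the gene from which the family was first described, had 37 and 33 reads in gonidia and 39776 and 43770 in somatic cells, a log2 fold change of 10.06 ± 0.29 (adjusted p = 3.16e-15). *vmp3* (Vocar.0016s0064), which carries long hydroxyproline-rich stretches, had 240 and 285 gonidial and 33336 and 58928 somatic reads, a log2 fold change of 7.26 ± 0.28 (adjusted p = 3.4e-14). *vmp39* (Vocar.0003s0417) had 110 and 96 reads against 18866 and 33321, a log2 fold change of 7.79 ± 0.28 (adjusted p = 2.2e-14). These 3 were the most abundant VMPs of somatic cells, at levels that the gonidial libraries did not approach.

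Among VMPs with no gonidial read at all, *vmp25* (Vocar.0062s0033) had 400 and 259 somatic reads and was thus at least 101.7-fold higher there, taking 3 reads per library as the gonidial limit. *vmp5* (Vocar.0094s0001) had 77 and 74 somatic reads and was at least 22.8-fold higher. *vmp19* (Vocar.0062s0031) had 1 and 0 gonidial and 1966 and 1339 somatic reads, a ratio of 2941 with a counting interval from 527 to 116198. These 3 loci were thus at or near the limit of detection in gonidia.

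A further 13 VMPs were somatic with log2 fold changes between 2.98 and 9.17, among them *vmp42* with 19 and 16 gonidial and 5428 and 7910 somatic reads (8.39 ± 0.30). The least changed somatic VMP was *vmp38* (Vocar.0001s0355), with 804 and 697 reads in gonidia and 2066 and 1992 in somatic cells, a log2 fold change of 1.29 ± 0.23 (adjusted p = 3.49e-05). Alone it held 48.6% and 43.2% of all gonidial VMP reads. *vmp26* had 1 and 0 gonidial and 22 and 8 somatic reads, a ratio of 26.7 (counting interval 4.44 to 1089), and *vmp34* and *vmp36*, which share a locus, had 13 and 13 against 196 and 322 (4.12 ± 0.35).

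Gonidial calls among VMPs were few and rested on fewer reads. *vmp41* (Vocar.0037s0030) had 190 and 175 reads in gonidia and 17 and 58 in somatic cells, a log2 fold change of -2.49 ± 0.36 (adjusted p = 2.84e-06), and was gonidial in every alternative run. *vmp13* (Vocar20005440m.g) had 18 and 10 reads against 5 and 1, with -2.32 ± 0.70 (adjusted p = 0.00504). That call was lost with the DESeq2 Wald test (adjusted p = 0.0679), without gonidial replicate 1 (0.0903) and without somatic replicate 2 (0.0508), each of which left 1 gonidial VMP. The locus of *vmp6*, *vmp16* and *vmp17* had 3, 0, 2 and 10 reads in the order gonidial 1 and 2, somatic 1 and 2, overlapped between cell-types and was not called (1.74 ± 1.00, adjusted p = 0.116). It was called somatic with TMM (2.30), with DESeq2's size factors (2.42), without gonidial replicate 1 (5.52) and without somatic replicate 1 (2.32). *vmp28* and *vmp27*, with at most 2 reads in any library, and *vmp12*, with none, were not tested.

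The 9 other loci held large changes in both directions. *ssgA* (Vocar.0002s0564), which encodes the sulfated glycoprotein that polymerises into the compartments around cells, had 33 and 40 reads in gonidia and 63018 and 74766 in somatic cells. Its log2 fold change was 10.71 ± 0.30, with an adjusted p of 3.04e-15, and it was second to *phI* among ECM loci in somatic reads. *Algal-CAM* (Vocar.0039s0020), a fasciclin-like cell adhesion molecule known from cell contacts of the embryo, went the other way. It had 1684 and 1403 reads in gonidia and 2 and 4 in somatic cells, a ratio of 578 toward gonidia (counting interval 265 to 1577) and a log2 fold change of -9.11 ± 0.38 (adjusted p = 1.07e-13). Both genes were fully separated between cell-types, in opposite directions.

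*lsg1* (Vocar.0016s0019) and *lsg2* (Vocar.0012s0179) differed from each other in how far they leaned to somatic cells. *lsg1* had 7 and 6 gonidial and 5784 and 8183 somatic reads (log2 fold change 9.87 ± 0.33, adjusted p = 1.36e-14), and *lsg2* had 143 and 145 against 671 and 838 (2.22 ± 0.25, adjusted p = 9.45e-08). The locus of a cysteine protease with a chitin-binding domain (Vocar.0001s1730) had 8 and 15 gonidial and 3615 and 7123 somatic reads (8.64 ± 0.37, adjusted p = 1.25e-13). A chitinase (Vocar.0004s0399), an enzyme that cleaves chitin, had 3 and 0 gonidial and 89 and 47 somatic reads, a ratio of 40.3 (counting interval 13.5 to 198, adjusted p = 1.3e-06). These 4 were all called somatic.

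The remaining 3 loci showed no difference that these data could resolve. The alkaline phosphatase (Vocar.0013s0281), an enzyme that removes phosphate groups, had 22, 16, 16 and 17 reads in the 4 libraries, and its libraries overlapped between cell-types. Its value was -0.36 ± 0.44 (adjusted p = 0.455), which became 0.23 with TMM and 0.35 with DESeq2's size factors. The arylsulfatase (Vocar.0025s0060), which releases sulfate in sulfur-starved cells, had 1, 1, 2 and 0 reads. The locus of the sex inducer genes *sex1*, *sex2* and *sex3* (Vocar.0027s0164) had no read in any library, which allows up to 3 reads in each.

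The make-up of the ECM reads differed between cell-types. In gonidial replicates 1 and 2, pherophorins held 80.4% and 79.7% of the ECM reads, VMPs 9.10% and 10.1%, and the other loci 10.5% and 10.2%. In somatic replicates 1 and 2, pherophorins held 52.8% and 51.6%, VMPs 30.7% and 33.1%, and the other loci 16.5% and 15.4%. Replicates differed by at most a few percentage points, and no family's share overlapped between cell-types, although the exact permutation test again could not go below p = 0.333. The mean share of VMPs was 9.60% ± 0.705 in gonidia and 31.9% ± 1.67 in somatic cells (SD, n = 2). A single locus's share within a library had a 95% Wilson interval at most 1.40 percentage points wide in gonidia and 0.285 in somatic cells.

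A handful of loci supplied most of these reads, and they were not the same in the cell-types. *phV23*, *phV27* and the locus of *phV2* and *phV17* held 29.3%, 20.7% and 14.1% of the ECM reads in gonidial replicate 1 and 28.6%, 20.9% and 13.1% in replicate 2. In somatic replicate 1 they held 0.117%, 0.340% and 0.227%, and in somatic replicate 2 0.107%, 0.541% and 0.289%. *phI*, *ssgA* and *vmp1* led in somatic replicate 1 with 37.5%, 14.2% and 8.98%, and *phI*, *ssgA* and *vmp3* in somatic replicate 2 with 32.1%, 12.6% and 9.95%. *phI* kept the fifth place in gonidia with 5.20% and 4.70%, behind *Algal-CAM* with 9.27% and 8.78%. The first 3 loci together held 64.1% and 62.5% of the gonidial and 60.7% and 54.6% of the somatic ECM reads, and 90% was reached with 9 and 10 loci in gonidia and with 12 in each somatic library. Loci with at least 10 reads numbered 33 and 32 in gonidia and 46 and 49 in somatic cells. Without the most abundant locus of each library, the share of pherophorins fell to 72.0% in gonidia and 26.6% in somatic cells, and VMPs then held 48.9% of the somatic ECM reads. If *ssgA* is counted with the pherophorins, their somatic share is 65.6%.

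**Figure D3:**
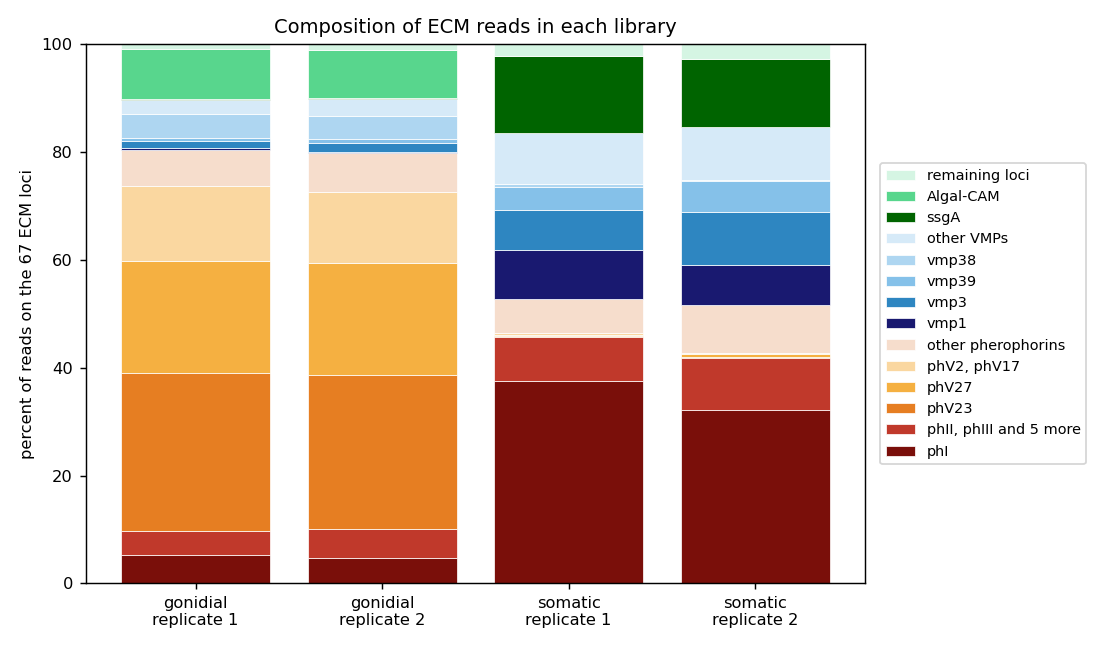
Stacked bars of the percent of reads on the 67 ECM loci (y axis) taken by single loci in each of the 4 libraries, with pherophorins in red and orange, VMPs in blue and other loci in green. The gonidial bars are mostly *phV23*, *phV27* and the locus of *phV2* and *phV17*, with *Algal-CAM* at 9.27% and 8.78%, whereas the somatic bars are led by *phI* at 37.5% and 32.1% and hold wide bands of *ssgA*, *vmp1* and *vmp3*.

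Many members lay near one another in the genome, as read from the scaffold and order numbers in their identifiers in the version 2 assembly. With up to 15 places between members, 32 of the 67 fell into 11 runs. Of the 26 tested members in runs, 22 were somatic and 1 gonidial, beside 19 and 5 of the 28 tested members outside runs. The somatic share was 84.6% in runs and 67.9% outside them, against 26.0% of all tested genes. These sets differed in family, because the 7 tested other loci all lay outside runs. Every VMP tested in a run was somatic, whereas the somatic share of tested pherophorins was the same in runs as outside. The contrast therefore cannot be read as one of position alone. Members of 5 runs were all somatic. The 89 other loci that directly flank a member had 70 tested genes, of which 30 were somatic and 23 gonidial, or 42.9% and 32.9%, so that flanking loci that are not members also lay above the somatic background of 26.0% and below the gonidial one of 46.7%. Neighbours in a run are often paralogs, and reads that could not be assigned uniquely between them were not counted.

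On scaffold 16, order numbers 63 to 66, the loci of *vmp10* with *vmp30*, of *vmp3*, of *vmp9* and of *vmp8* with *vmp11* followed each other without a gap, and all 4 were somatic with log2 fold changes from 6.73 to 9.17. *vmp10* with *vmp30* had 89 and 125 gonidial and 10434 and 15393 somatic reads. *vmp9* had 3 and 7 against 3438 and 3043. *vmp8* with *vmp11* had 62 and 74 against 9642 and 18428. *vmp3* had the most reads of the 4 in every library and was 9th of the 67 ECM loci in gonidia, whereas *vmp9* had few gonidial reads. On scaffold 62, *vmp2*, *vmp19*, *vmp25* and *vmp24* lay between order numbers 24 and 36 and were all somatic, at 6.81 to 11.34 by fitted values. *vmp2* had 16 and 12 gonidial and 4549 and 2014 somatic reads, and *vmp24* had 0 and 2 against 160 and 114, a ratio of 122 (counting interval 33.4 to 1012). On scaffold 54, order numbers 52 to 55, *vmp20* with *vmp21*, *vmp22* and *vmp23* were somatic at up to 8.59. *vmp22* had 27 and 21 gonidial and 3310 and 6124 somatic reads, *vmp23* had 1 and 6 against 441 and 602, and *vmp20* with *vmp21* had 0 and 1 against 387 and 111. On scaffold 7, *vmp1* lay next to *vmp37*, which had 16 and 32 gonidial and 1511 and 2097 somatic reads (6.04 ± 0.33).

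Pherophorin runs were less uniform. The 5 members on scaffold 48, order numbers 10 to 16, held *phV29* with a log2 fold change of 9.74 ± 0.41, *phV27* and *phV26* at -0.80 and -0.67, the untested *phV30* with at most 1 read in any library, and *phV28* at 1.10. Directly adjoining loci of this run thus differed by more than 10 log2 units, with *phV29* at 1 and 3 and *phV27* at 3756 and 3333 gonidial reads. On scaffold 73 the locus of *phV2* and *phV17* at -0.96 lay beside *phV16*, with 60 and 65 gonidial and 223 and 314 somatic reads and a log2 fold change of 1.92. On scaffold 4, *phV11* lay beside *phV10*, which had 1 and 1 gonidial and 66 and 127 somatic reads, and within the same run as *phS*. On the same scaffold *phI* lay close to *phV15*, which had 1 and 1 gonidial and 7 and 10 somatic reads, so that the ECM locus with the most reads had a somatic neighbour with very few. The run of *vmp7*, *vmp28* and *vmp27* on scaffold 17 had 1 tested member, *vmp7*, with 1 and 4 gonidial and 21 and 25 somatic reads. Of *phV42* and *phV20* on scaffold 29, *phV20* was tested, with 3 and 5 against 22 and 21 reads, and *phV42* had 1, 5, 1 and 0. On scaffold 27, *phV41* shared a run with the silent sex inducer locus.

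**Figure D4:**
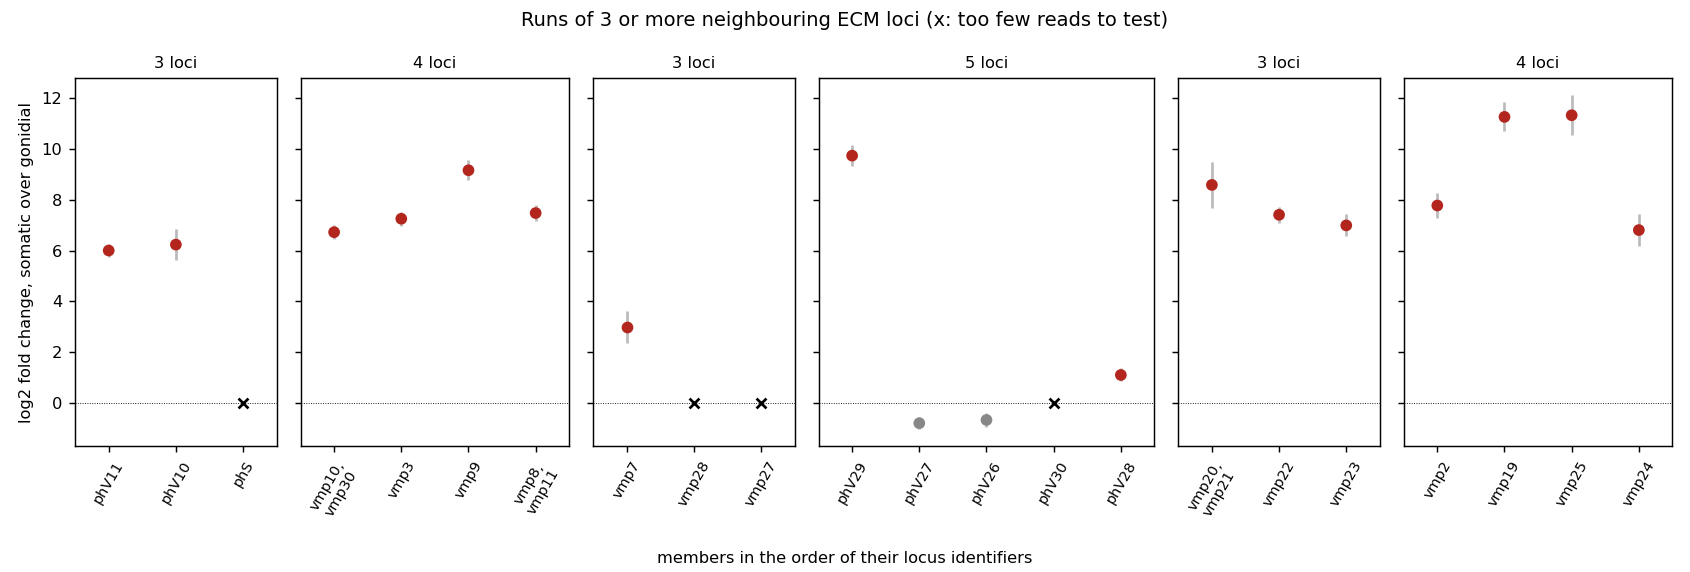
Log2 fold changes (y axis, somatic over gonidial, SE bars) of the members of the 6 runs that held 3 or more ECM loci, in the order of their identifiers (x axis), with red for somatic calls, grey for tested loci without a call and crosses at 0 for loci with too few reads to test. Every VMP tested in these runs is red, between 2.98 and 11.34, whereas the run of 5 pherophorins holds values from -0.80 to 9.74.

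Gonidial replicates were closer to each other than somatic replicates at ECM loci. Among loci with at least 50 reads in both libraries of a cell-type, none of 19 differed by over 2-fold between gonidial replicates, and 4 of 39 did between somatic replicates, beside 0.201% and 2.59% of all tested genes with as many reads. The 4 were *phDZ1* and *phDZ2*, higher in somatic replicate 2 with log2 ratios of 1.57 and 1.17, and *vmp2* and the locus of *vmp20* and *vmp21*, higher in replicate 1 with log2 ratios of -1.52 and -2.15 (replicate 2 over replicate 1). Pherophorins were higher in somatic replicate 2 at 13 of 17 loci and VMPs at 9 of 18, beside 4399 of 6942 among all tested genes. All 4 members of the run on scaffold 62 were higher in somatic replicate 1, with 400 against 259 reads for *vmp25* and 1966 against 1339 for *vmp19* while replicate 2 was the deeper library. With 2 libraries per cell-type, no test of these differences between replicates was possible. Each of the genes named here remained somatic when either somatic library was left out.

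**Figure D5:**
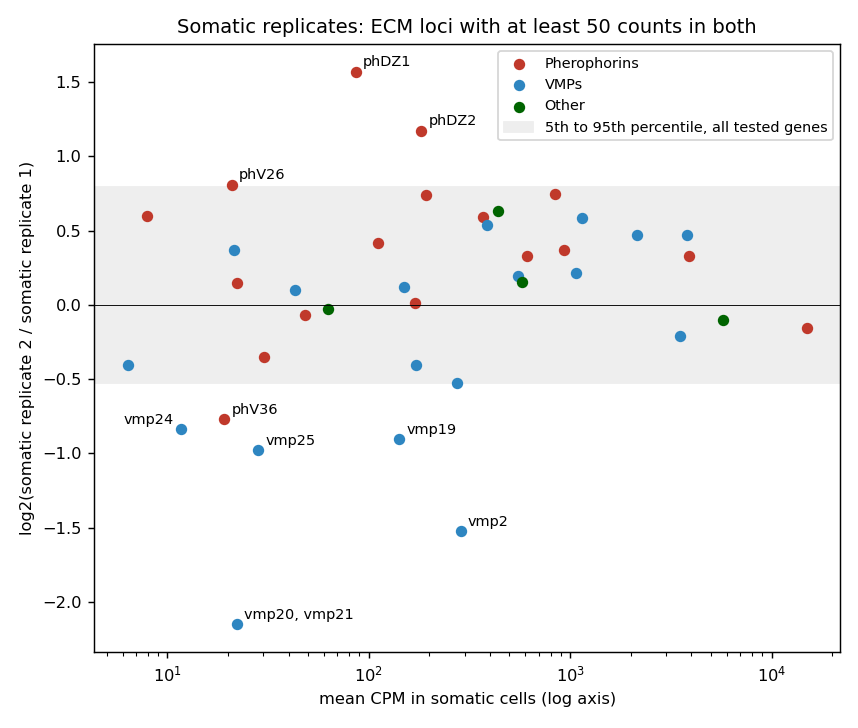
Log2 ratio of somatic replicate 2 over somatic replicate 1 (y axis, counts divided by relative library size) against the mean CPM in somatic cells (x axis, log scale) for the 39 ECM loci with at least 50 reads in both somatic libraries. The grey band spans the 5th to 95th percentile of 6942 tested genes with as many reads, from -0.53 to 0.80. *phDZ1* and *phDZ2* lie above it at 1.57 and 1.17, and *vmp2* and the locus of *vmp20* and *vmp21* below it at -1.52 and -2.15.

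Genes that build and attach the sugars of ECM glycoproteins had smaller median changes toward somatic cells than the ECM genes themselves. Of the 36 glycosyltransferase genes that the study listed for O-linked glycans, 34 were tested, with 11 somatic, 7 gonidial and 16 neither and a median log2 fold change of 0.35. These were 32.4% and 20.6% of the tested members, beside 26.0% and 46.7% of all tested genes, whose median was -0.85. With these library sizes the somatic share was thus near the background and the gonidial share below it. The median of the list became 0.93 with TMM and 1.05 with DESeq2's size factors, beside -0.26 and -0.14 for all tested genes. The split became 16 somatic and 5 gonidial with TMM and 17 and 4 with DESeq2's size factors, scalings that moved all 13350 genes to 4295 and 5070 and to 4490 and 4836. Of the 4 listed HPAT genes, relatives of the plant enzymes that place the first arabinose on hydroxyproline, 2 were somatic and none gonidial (4 somatic with TMM or DESeq2's size factors), with *HPAT2* at 2.56 ± 0.24 (adjusted p = 7.6e-09) and *HPAT1* at 1.86 ± 0.22 (adjusted p = 1.81e-07). Of the 3 RRA genes, named after plant arabinosyltransferases that extend that chain, 2 were somatic, with *RRA2* at 3.27 ± 0.25 (adjusted p = 5.86e-10). The 10 XEG113 genes, named after another plant arabinosyltransferase, went both ways, with 5 somatic and 2 gonidial, from *XEG113-5* at 4.63 ± 0.37 to *XEG113-10* at -2.27 ± 0.35. The INVC genes, the group with the most members among these transferases at 14, had 12 tested, of which 2 were somatic, 4 gonidial and 6 neither. Their median was -0.55, which became 0.04 with TMM and 0.16 with DESeq2's size factors, where 3 were somatic and 3 gonidial. *INVCL10*, with 34 and 33 gonidial and 3 and 3 somatic reads, was the most gonidial of the listed transferases at -3.59 ± 0.54 (adjusted p = 5.36e-06), and *INVCL3* was somatic at 1.42 ± 0.29 (adjusted p = 0.000161).

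Of the 20 listed enzymes of nucleotide sugar synthesis, which make the donors for these transferases, 19 were tested, with 8 somatic, 5 gonidial and 6 neither and a median of 0.73. The somatic share was 42.1% and the gonidial share 26.3%, beside the same 26.0% and 46.7% of all tested genes. With TMM or with DESeq2's size factors, and the shifts of all genes just given, 10 were somatic and 1 gonidial. *UGD1*, a UDP-glucose dehydrogenase gene, and *UXS1*, which is named for the enzyme that makes UDP-xylose, were somatic at 1.64 ± 0.20 (adjusted p = 3.95e-07) and 2.74 ± 0.21 (adjusted p = 6.85e-10). Of the other 2 UGD genes, *UGD3* was gonidial at -1.17 ± 0.25 (adjusted p = 0.000309), a call lost with TMM or DESeq2's size factors. *UGD2* had the direction of *UGD1* at 0.73 ± 0.25 (adjusted p = 0.0122) but was under the 2-fold limit. With TMM or DESeq2's size factors 2 of the 3 UGD genes were somatic and none gonidial. *UXE1* was also gonidial, at -1.13 ± 0.28 (adjusted p = 0.00117), a call likewise lost with TMM or DESeq2's size factors. The largest change in the list was that of *PMI1*, a phosphomannose isomerase gene, at 4.08 ± 0.29 (adjusted p = 1.69e-10), and the most gonidial was *PGI1*, a phosphoglucose isomerase gene of central carbon metabolism, at -2.27 ± 0.24 (adjusted p = 4.76e-08). None of the glycosyltransferases or nucleotide sugar enzymes reached 100-fold, a size of change found at 24 ECM loci by fitted values. Toward somatic cells it was found at 3.69% of all tested genes, so that lists this short would hold few such genes at the background share.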

How the data were processed

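RNA of 2 gonidial and 2 somatic preparations was sequenced as single-end reads from oligo-dT-selected RNA. Per the methods and the submitters' processing notes, the authors converted base calls with bcl2fastq 1.8.4, trimmed reads with Trimmomatic, mapped the rest to the version 2 assembly using STAR and assigned uniquely mapped reads to merged gene models with HTSeq (other versions not given in the sources used here). They deposited the whole-number read counts, without normalization and with replicates kept apart, and no other values. Totals of 10838222 to 13104583 counts set the precision.

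As library size served the summed counts below each library's upper 0.3% quantile. This took out 45 genes per library with 25.6% to 34.9% of its counts, among them no ECM locus in gonidia and 3 and 5 ECM loci in the somatic libraries. Of the 16008 gene models, 1174 had no count and the bottom 10% of the rest by mean normalised count (up to 2.50) were dropped. The other 13350 were fitted with edgeR's quasi-likelihood test, cell-type being the only term, and adjusted by the Benjamini-Hochberg method. Residual degrees of freedom numbered 2, prior degrees of freedom 17.1 and the common dispersion was 0.0316, so each p-value rests on spread shared across genes. The SE is the absolute log2 fold change over the square root of the F statistic. Counting intervals are exact 95% intervals of the ratio of summed counts.

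The members, families, other lists and rules for naming genes were chosen with earlier results of these data known. Named with every library's counts are the 3 loci with the largest mean share of ECM reads per family and cell-type, gonidial loci, the extremes of each family, loci in runs and the 9 other loci. The loci of the pathway lists were picked after their values were seen. On simulated counts of 13350 genes for this comparison, the test recovered 19, 49, 50 and 50 of 50 genes changed 2-, 4-, 8- and 16-fold, with 3 false calls. The simulation gave every gene the same dispersion and left most genes unchanged. Changed genes were drawn from those with more reads, with as many raised as lowered. It therefore does not speak to loci with few reads or to the choice of library size. Alternatives were other library sizes, tests and filters, a replicate term, each library left out and other definitions of the shares. Fits ran in edgeR 4.0.16 with limma 3.58.1, or DESeq2 1.42.0, under R 4.3.3. Tables, exact intervals and plots were made with pandas 2.3.3, scipy 1.17.1, numpy 2.4.6 and matplotlib 3.10.9 under Python 3.11.15.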

Additional observations from a re-analysis of the deposited data

How the results depend on the processing

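Of 615 fold changes of single ECM loci under 12 alternatives of the fit, 595 kept their direction and call, 9 lost and 8 gained a call, and 3 reversed, none of them called. Of the 47 called loci, 43 kept their call wherever they were tested. The reversed values were 0.033 for *phV26* with DESeq2's size factors and, for the alkaline phosphatase, 0.23 with TMM and 0.35 with DESeq2's size factors. A filter of 10 or more counts per library removes loci nearly silent in either cell-type, among them the gonidial *Algal-CAM*, *phV41*, *phV32* and *vmp13*. It left 20 somatic and 2 gonidial ECM loci (7 and 1 pherophorins, 11 and 1 VMPs, 2 and 0 other loci). Of all 8826 genes that passed it, 2271 were somatic and 3479 gonidial. With the DESeq2 Wald test 1 VMP was gonidial. With libraries left out in turn, gonidial pherophorins numbered 3 to 6, most without somatic replicate 2, and gonidial VMPs 1 to 2, with 1 left without gonidial replicate 1 and without somatic replicate 2. Without 1 library of a cell-type, the remaining one is assumed to vary like the other pair.

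Replicate numbers do not pair libraries, since no culture gave both cell-types, and the deviations of same-numbered libraries had a correlation of -0.09 over 9149 genes. With a replicate block 41 ECM loci were somatic and 6 gonidial, the counts of the fit without it, and no ECM call changed.

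Without the most abundant ECM locus of each library, pherophorins, VMPs and other loci held 72.0%, 13.5% and 14.5% of the gonidial and 26.6%, 48.9% and 24.5% of the somatic ECM reads. With single-name loci only, the gonidial shares were 76.6%, 10.5% and 12.8%, and the somatic shares of pherophorins and other loci 50.2% and 18.6%. With *ssgA* among the pherophorins, these held 65.6% of the somatic ECM reads, and the other loci 10.1% in gonidia and 2.52% in somatic cells. Shares divided by coding length were not run. The ratio of ECM shares was 26.9 to 31.4 in its alternatives. Loci with under 10 counts, and ratios against 0 to 3 gonidial reads, are limited by depth.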
